A study of Homo sapiens with 8 samples.

Results

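The RNA recovered with a biotinylated duplex of miR-1271-5p was set against the RNA recovered with a control duplex in 786-0 cells, an established human line from a clear cell renal carcinoma. Libraries were chosen by their titles: 3 labelled miR_1271 and 3 labelled Control_miR, which makes 6 of the 8 libraries of the series. The other 2 carry miR-2355-5p and are used here only to show where the miR-1271 pulldown differs from that of another microRNA. All 3 groups were the same line in the same medium, transfected with a synthetic duplex for 48 hours, and the duplex is the 1 difference that the labels give. The control duplex is named in the labels only as a control microRNA. RNA from before the pulldown was not analysed here. Each value is therefore relative to the other RNAs in the same eluate, and recovery and cellular amount cannot be told apart.

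A microRNA guides an Argonaute protein to messenger RNAs, mostly through pairing of its seed, bases 2 to 8 from the 5′ end, to sites in their 3′ untranslated regions. The bound messenger is then repressed or degraded. A duplex with a biotin label, recovered on streptavidin, brings down RNAs that are held with it, along with RNA that sticks to the beads or the tag. The control duplex measures that background, so RNAs above it are the candidates for binding in such an assay.

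The sequences that define the assay are given first, from RefSeq (GRCh38.p14), with the seed in capitals. They are the mature RNAs of the 2 transfected microRNAs, of miR-1271-3p from the other arm of the same hairpin, and of 2 relatives by seed.
hsa-miR-1271-5p: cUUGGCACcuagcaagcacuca
hsa-miR-96-5p: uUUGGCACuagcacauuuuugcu
hsa-miR-182-5p: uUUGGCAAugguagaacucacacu
hsa-miR-1271-3p: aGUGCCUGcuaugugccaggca
hsa-miR-2355-5p: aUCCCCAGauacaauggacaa
Of 2370 mature names in the RefSeq table, miR-96-5p was the 1 besides miR-1271-5p with this exact seed, so 2 names carry it. The seed of miR-182-5p equals it at 6 of 7 positions and that of miR-2355-5p at 3 of 7. The site that pairs with the seed of miR-1271-5p reads GUGCCAA. MIR1271 lies on chromosome 5, from 176367946 to 176368031, inside the bounds of the protein-coding gene ARL10 (176365487 to 176415063), and the mature 5p strand takes 176367960 to 176367981 on the plus strand. MIR96 lies on chromosome 7, with its 5p strand at 129774739 to 129774761 on the minus strand.

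The 3 control libraries held 22864693, 4122875 and 20722317 counted reads, and the 3 miR-1271 libraries 10358878, 10959081 and 13119672. Control replicate 2 was the shallowest. Of the 60666 Ensembl IDs in the deposited table, 29149 had a read in both groups, 4226 in the controls alone and 2798 with miR-1271 alone. These counts were not set to equal depth, and the controls held 47709885 reads in all against 34437631 with miR-1271. No column of the files pairs the IDs with gene names, and the gene table used here holds no Ensembl ID, so genes are given by ID and as groups. Markers of kidney and of other cell types could not be looked up for the same reason. Nothing in the labels ties replicates to separate cultures, and the p-values then measure only the spread between these samples, which may be technical. The median standard deviation of log2 CPM, read counts scaled to library size, was 0.21 over the controls and 0.183 over the miR-1271 libraries.

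The miR-1271 pulldown differed from the control in 40.2% of the 17351 genes that passed the filter on low counts. Higher than with the control duplex were 3062 genes (17.6%) and lower were 3910 (22.5%; edgeR quasi-likelihood test, Benjamini-Hochberg adjusted p under 0.05). At least 2-fold higher were 632 genes (3.64% of those tested), and at least 2-fold lower were 1527 (8.8%). Large changes were more often falls than rises. The balance of directions followed the scaling: rises were 43.9% of the calls under TMM scaling, 54.6% under upper-quartile scaling and 28% under plain library totals, which put the median log2 change over the tested genes at -0.14 against 0.006 under TMM.

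**Figure D1:**
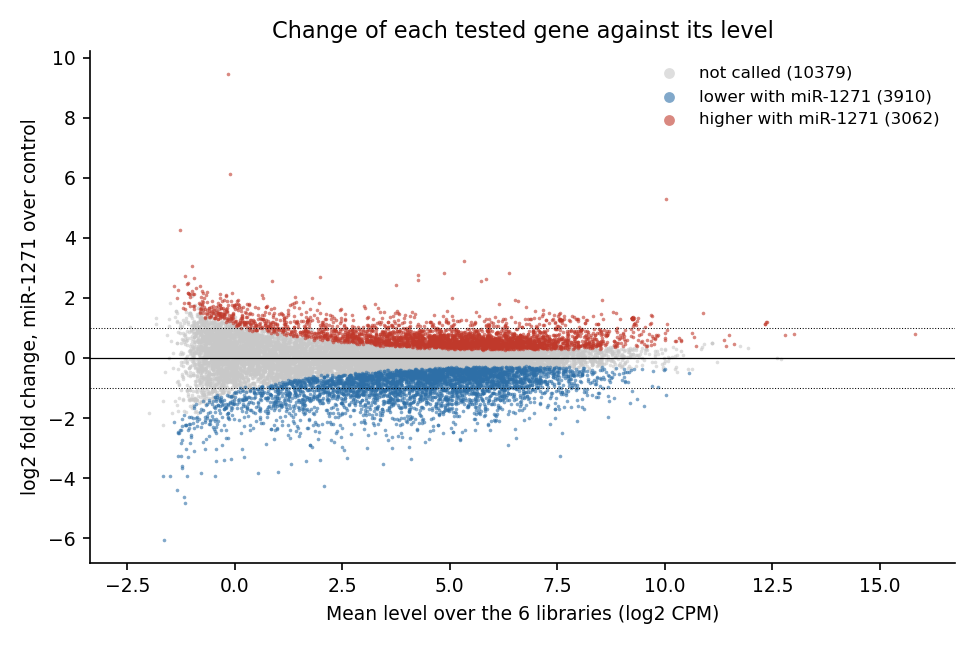
Each point is 1 of the 17351 tested genes, placed by its mean level over the 6 libraries (x axis, log2 CPM) and its log2 fold change, miR-1271 over control (y axis); dotted lines mark 2-fold. The 3910 lower genes reach further from 0 than the 3062 higher ones over most of the range of levels, while a few rows stand apart above.

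Rises and falls differed in how cleanly the libraries separated. In 114 of the 632 genes that rose at least 2-fold (18%), every miR-1271 library stood at least 2-fold above every control library. In 716 of the 1527 that fell at least 2-fold (46.9%), every miR-1271 library stood at least 2-fold below every control library. Whether called or not, this wider gap was met upward by 115 of the tested genes (0.663%) and downward by 716 (4.13%). Plain separation of the groups, with no minimum gap, was met upward by 23.1% and downward by 26.8% of tested genes. The gap depends on the size of the change, and the sets differed in that too. Changes of 4-fold or more made up 45 of the 632 rises and 237 of the 1527 falls. Median log2 changes of the sets were 1.3 and -1.39. The sets also differed in level: rises of 2- to 4-fold had a median level of 1.71 on the log2 CPM scale and falls of that size one of 3.51. Among the 5781 abundant genes, those with a mean log2 CPM of at least 5, the gap was met by 41 of the 163 that rose at least 2-fold (25.2%) and by 219 of the 370 that fell as much (59.2%). The genes were picked by the values that these shares describe, so no test is given.

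The gene with the largest rise by the rule for named genes was ENSG00000278540. It stood at 202.4, 142.6 and 174.1 CPM in the 3 controls and at 7363, 4147 and 8819 CPM in the 3 miR-1271 libraries. Every miR-1271 library was far above every control, and the miR-1271 libraries were spread widely among themselves, with replicate 2 the lowest. Its means were 173 ± 29.9 CPM (SD, n = 3) and 6780 ± 2390 CPM (SD, n = 3), 5.29 ± 0.27 higher on the log2 scale (SE; edgeR adjusted p = 3.56e-09). The miR-2355 libraries were high as well, at 5126 and 4619 CPM, inside the range of the miR-1271 libraries. The difference between the microRNAs was 0.48 ± 0.26 on the log2 scale (SE; edgeR adjusted p = 0.283).

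The next largest rise was that of ENSG00000138764, and here the 2 microRNAs differed. Its level was 17.25, 9.81 and 12.17 CPM in the controls, 104.2, 131.3 and 148 CPM in the miR-1271 libraries, and 12.66 and 14.17 CPM in the miR-2355 libraries. The miR-1271 libraries lay apart from the 5 others, while the miR-2355 libraries lay within the range of the controls. The log2 fold change was 3.22 ± 0.18 over the control (SE; edgeR adjusted p = 5.53e-09) and 3.25 ± 0.21 over miR-2355 (SE; edgeR adjusted p = 1.53e-07). The counts behind these levels were 1007, 1326 and 1868 reads with miR-1271 and 406, 43 and 261 with the control.

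The largest fall was that of ENSG00000198157. It stood at 13.59, 16.88 and 21.68 CPM in the controls and at 1.035, 0.8909 and 0.7923 CPM in the miR-1271 libraries, which held 10, 9 and 10 reads. The groups did not overlap, and the log2 fold change was -4.27 ± 0.26 (SE; edgeR adjusted p = 8.8e-09). With miR-2355 it stood in between, at 2.297 and 2.437 CPM. The log2 difference of miR-1271 from miR-2355 was -1.39 ± 0.33 (SE; edgeR adjusted p = 0.0227). That call was lost on leaving out replicate 2 or 3 of miR-1271 (edgeR adjusted p = 0.0711 and 0.095) and on leaving out either library of miR-2355 (0.0735 and 0.117).

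ENSG00000250461 fell next most. Its level was 5.65, 6.616 and 7.552 CPM in the controls and 0.4138, 0.5939 and 0.3962 CPM in the miR-1271 libraries, from 4, 6 and 5 reads. The log2 fold change was -3.81 ± 0.32 (SE; edgeR adjusted p = 1.79e-07). The miR-2355 libraries were low as well, at 0.4807 and 0.6413 CPM, and the difference between the microRNAs did not pass (-0.26 ± 0.47, SE; edgeR adjusted p = 0.805). Of these 4 genes, 2 thus differed between the microRNAs and 2 did not pass that test. The 4 were picked for their change in the same miR-1271 libraries, which draws such differences the same way.

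**Figure D2:**
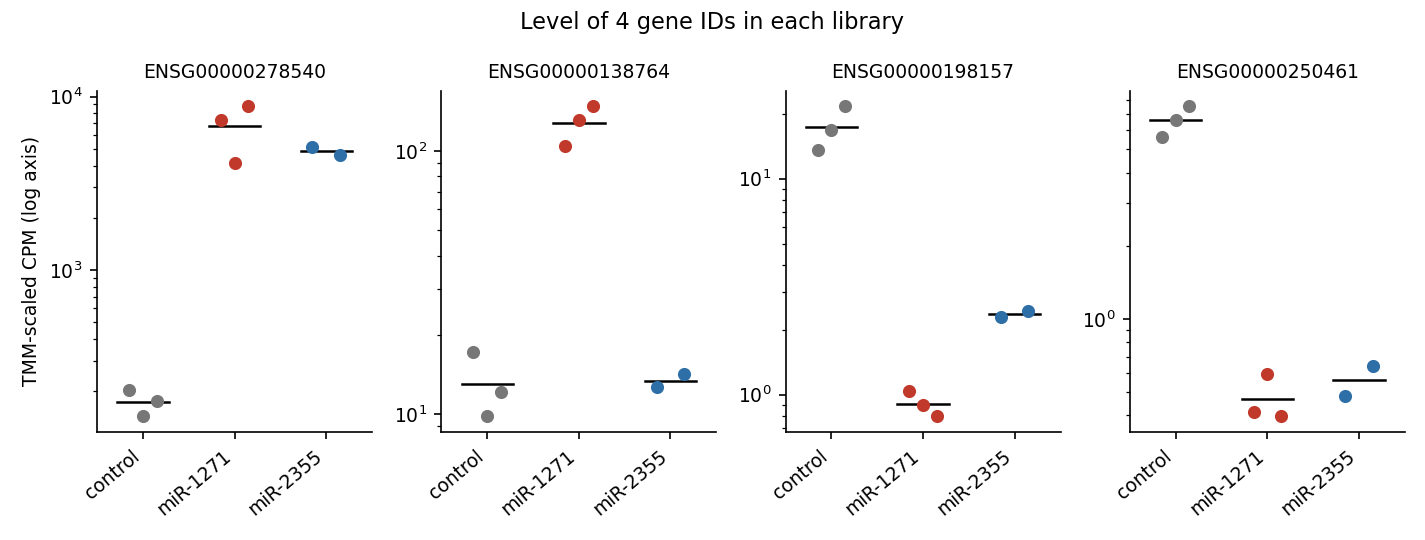
Each panel gives 1 gene ID; points are libraries (3 control, 3 miR-1271, 2 miR-2355), bars are group means, and the y axis is TMM-scaled CPM on a log axis that differs between panels. The miR-2355 points lie with miR-1271 in the first and last panel, with the controls in the second, and between both in the third.

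The 12 largest rises by the rule ran from 1.98 to 5.29 on the log2 scale (edgeR adjusted p at most 0.00028), from control means of 1.244 to 173 CPM. The 12 largest falls ran from -4.27 to -2.98 (edgeR adjusted p at most 4.93e-07), from control means of 6.606 to 590.2 CPM down to 0.468 to 61.84 CPM. The rule's floor on mean log2 CPM was taken over the control and miR-1271 libraries together. A gene low in the controls can thus pass through its rise alone, and a fall through its control level alone. Of the 12 rises, 5 were also higher than with miR-2355, and 7 did not pass against it. Several of these 7 tracked each other over the libraries, as described below, and are not independent counts. Of the 12 falls, 2 were also lower than with miR-2355, and 10 did not pass. Among abundant genes the 10 largest rises, 1.79 to 5.29 on the log2 scale, included 7 that were higher than with miR-2355. The 10 largest falls, -3.26 to -2.41, included 2 that were lower. Abundance was taken over the control and miR-1271 libraries together, so a gene can pass through its rise alone. The control means of these 10 rises began at 13.07 CPM. Against miR-2355, 6.15% of all tested genes were called: 2.65% were higher with miR-1271 than with miR-2355 and 3.5% were lower. The listed rises and falls were picked for their change in the same miR-1271 libraries that this contrast uses. Their counts are therefore a description and cannot be compared with these shares.

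The share of calls against miR-2355 changed with the size of the change over control. Of the genes higher than with control by under 1.5-fold, 4.69% were also higher than with miR-2355. For rises of 1.5- to 2-fold the share was 9.38% and for rises of 2- to 4-fold 21.6% (127 of 587 genes). Above 4-fold it was 15.6%, or 7 of 45 genes. The steps also differed in level: the median log2 CPM went from 5.75 in the first to -0.71 in the last. For falls it went from 5.43 to 1.71. The part of level in these shares was not tested. Among genes lower than with control, the share also lower than with miR-2355 was 8.2%, 9.07%, 8.14% and 7.17% in the same steps. Under 1.5-fold the share was thus lower for rises than for falls, between 1.5- and 2-fold it was much the same, and from 2-fold up it was higher for rises. In the steps of 2- to 4-fold, the median log2 difference from miR-2355 was 0.65 for rises of a median 1.29, and -0.22 for falls of a median -1.31. Both contrasts use the same miR-1271 libraries, which draws rises towards higher and falls towards lower calls, so these shares are a description.

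**Figure D3:**
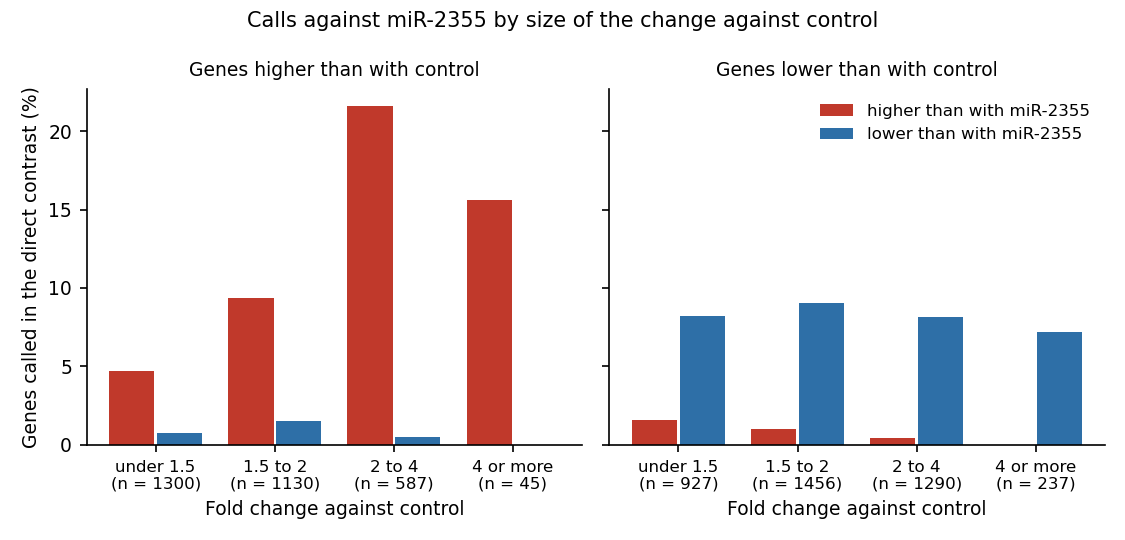
Bars give the percentage of genes called higher (red) or lower (blue) in the direct contrast of miR-1271 with miR-2355, against the size of the gene's change against control (x axis, with the number of genes). The red bars climb from 4.69% to 21.6% and stand at 15.6% in the last step on the left, while the blue bars on the right stay between 7.17% and 9.07%.

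These direct calls depended on single libraries. In all, 134 genes were at least 2-fold higher than with control and also higher than with miR-2355, and 122 were at least 2-fold lower and also lower. Leaving out replicate 2 of miR-2355 left 31 and 19, replicate 2 of miR-1271 left 68 and 59, and replicate 3 of miR-1271 left 76 and 42. Leaving out replicate 1 of the control raised them to 253 and 211, and leaving out replicate 1 of miR-2355 gave 158 and 79. In each of these omissions the rises outnumbered the falls, although they start from the smaller set. With library totals in place of TMM the order turned, at 87 and 302.

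The 3 miR-1271 libraries did not contribute alike to the large rises. Replicate 2 was the highest of the 3 in 381 of the 632 genes that rose at least 2-fold (60.3%), replicate 3 in 157 (24.8%) and replicate 1 in 94 (14.9%). Over all tested genes the shares were 34.7%, 34.8% and 30.6%. Among abundant genes that rose at least 2-fold, replicate 2 was the highest in 120 of 163 (73.6%) and replicate 3 the lowest in 108 (66.3%). The 163 and 632 rows are not all independent: 4 of them lay within 10% of each other in every library of the comparison, as given below. How many others share reads was not tested. The median log2 difference of the 163 from the control mean was 1.51 in replicate 2, 1.26 in replicate 1 and 1.1 in replicate 3. The genes were chosen for a rise over these same libraries, so values above 0 follow from the choice. Over all abundant genes replicate 2 was the highest in 29.6% and replicate 3 in 40.9%. Of the genes that fell at least 2-fold, replicate 2 was the highest in 34.8%. Among the 370 abundant ones of these, replicate 2 was the highest in 25.4% and the lowest in 184, and replicate 3 was the highest in 44.6%. Within the 12 largest rises, replicate 2 was the highest in 10 and at least 2-fold above both others in 5. Of these 5 rows, 4 tracked each other: over the 8 libraries the log2 ratio of any pair of them had a standard deviation of 0.17 to 0.4, so they may share reads and are not counted as independent, which was not tested. Genes that rose at least 2-fold numbered 665, 510 and 636 on leaving out miR-1271 replicate 1, 2 or 3, and 801, 605 and 470 on leaving out control replicate 1, 2 or 3, in place of 632.

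**Figure D4:**
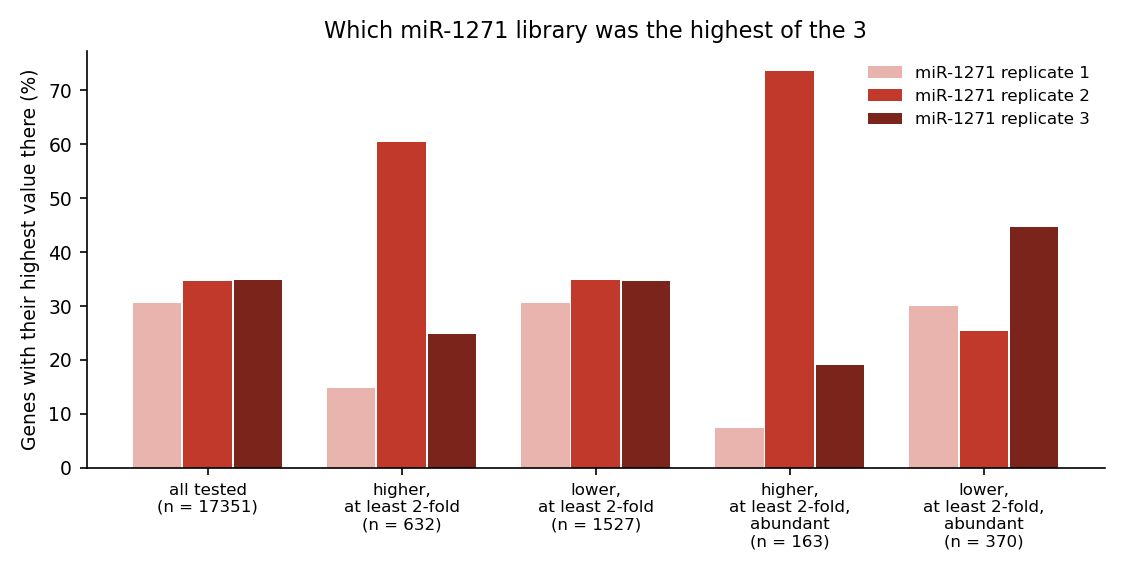
For each set of genes (x axis, with its number), bars give the percentage in which each of the 3 miR-1271 libraries had the highest scaled level. The shares are near each other over all tested genes, while replicate 2 leads among rises of at least 2-fold, at 60.3%, and more so among abundant ones, at 73.6%.

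Reads were more concentrated in few rows with miR-1271 than with the control, and to a lesser degree with miR-2355. The 10 most abundant rows of each library took 9.176%, 8.807% and 9.349% of control reads and 14.23%, 15.76% and 11.8% of miR-1271 reads. The 1000 most abundant took 50.25% ± 0.965 (SD, n = 3) and 56.75% ± 1.446 (SD, n = 3). All 3 miR-1271 libraries were above all 3 controls on both measures. Both miR-2355 libraries were above all 3 controls too, at 11.23% and 9.635% for 10 rows and 53.64% and 51.99% for 1000. For miR-1271 against control, the exact two-sided permutation p was 0.1 for each measure (0.12 adjusted over 6 measures), the smallest that 3 against 3 libraries allow. The miR-2355 libraries were not tested on these measures. At equal depth the number of IDs with a read did not differ detectably between control and miR-1271, at 22310 ± 301.1 and 22390 ± 201.7 (SD, n = 3 each; exact permutation p = 0.7). The order of concentration among the miR-1271 libraries, with replicate 2 first and replicate 3 last, is the same as that of the large rises among abundant genes. The part of this concentration in those rises was not tested.

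**Figure D5:**
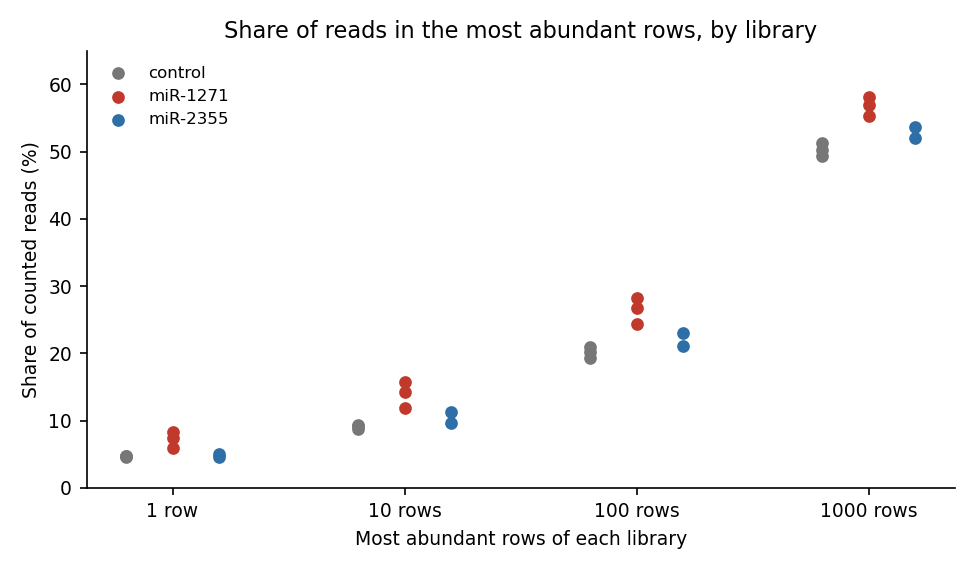
Points are libraries; the y axis gives the percentage of a library's counted reads in its 1, 10, 100 or 1000 most abundant rows. The miR-1271 libraries lie above the controls at each step, and the miR-2355 libraries do so from 10 rows on. For 10 rows the miR-1271 libraries took 11.8% to 15.76% and the controls 8.807% to 9.349%.

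Among the 10 rows most abundant over the 6 libraries, 7 rose with miR-1271, 0 fell and 3 did not pass. Over the 5781 abundant genes, 28% were called higher and 26.2% lower. The ranking took in the miR-1271 libraries, so a row can gain its rank through its rise, and the count is a description. The top row took 4.74%, 4.52% and 4.68% of control reads and 7.39%, 8.3% and 5.97% of miR-1271 reads. Its log2 fold change was 0.79 ± 0.22 (SE; edgeR adjusted p = 0.0102), and the difference from miR-2355 did not pass (0.72; edgeR adjusted p = 0.101). The rows ranked 4 and 5 stayed near the control, at -0.05 ± 0.24 and -0.02 ± 0.17 on the log2 scale (SE; edgeR adjusted p = 0.891 and 0.947). The rows ranked 6 to 9 rose by 1.13 to 1.19 and lay within 10% of each other in every library of the comparison. Rows of near-identical gene copies can share reads in this way, so these 4 are not counted as independent. Sharing was not tested.

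The genes called higher made up 30.89%, 28.65% and 28.97% of control reads and 44.68%, 47.01% and 43.27% of miR-1271 reads. The genes called lower made up 23.98%, 26.5% and 25.83% of control reads and 13.14%, 12.35% and 13.6% of miR-1271 reads. Those higher at least 2-fold took 4.234% to 4.342% of control reads and 9.019% to 10.68% of miR-1271 reads, and 7.959% and 5.678% in the miR-2355 libraries. Those lower at least 2-fold took 7.333% to 8.211% of control reads, 2.512% to 2.774% with miR-1271, and 2.949% and 3.557% with miR-2355. The genes were chosen by the contrast of miR-1271 with control, so only the miR-2355 values lie outside that contrast. They are compared with its same controls, and the miR-2355 libraries also entered the filter, the scaling and the estimate of the spread.

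Reads in 1 group alone were rare among rows with at least 5 reads in every library of that group. These reads were not set to equal depth. Control replicate 2 held 4122875 reads and the miR-1271 libraries 10358878 or more, so the directions were not held to the same share of reads. A single row had no read in any control and at least 5 in each miR-1271 library, with 38, 93 and 63 reads and 0 in both miR-2355 libraries. Its share was 89.6-fold above a floor of 3 reads over the controls' summed total (edgeR adjusted p = 1.29e-06 for the contrast). In the other direction, 1 row had 5, 5 and 16 control reads and 0 in each miR-1271 library. Its control share was 6.26-fold above the same floor of 3 over the summed miR-1271 total (edgeR adjusted p = 0.00456 for the contrast). That row held 4 and 5 reads in the miR-2355 libraries. Both rows were chosen after their values were seen. The floor allows for counting error only on the side with 0 reads, so these folds are not lower bounds. PCR copies of a molecule are also counted as reads.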

How the data were processed

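The authors deposited 1 table of raw counts, with a row per Ensembl gene ID and a column per library; per the submitters' processing notes, the authors used BWA and featureCounts with the builds hg38 and GRCh38. For versions, annotation release, strand setting and reads with several positions, the settings were not given in the sources used here. Reads across splice junctions can be lost by BWA, and overlapping or antisense genes cannot be told apart without a strand setting.

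Genes were kept by filterByExpr in edgeR 4.0.16 (R 4.3.3), which left 17351 genes and 99.78% to 99.82% of each library's reads. Libraries were scaled by TMM and 1 quasi-likelihood model was fitted to all 8, so that the groups share 1 estimate of the spread; the call was a Benjamini-Hochberg adjusted p below 0.05. Standard errors are the log2 fold change over the square root of the F statistic and are approximate. Levels are TMM-scaled CPM; mean log2 CPM used a prior count of 2.

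The rule for named genes took the 12 largest rises and falls among called genes whose log2 CPM averaged at least 1 over the 6 libraries, with no overlap between the groups, and 10 of each with a mean of at least 5. Its clauses on symbols and on coding genes, the gene lists and markers fixed by symbol, and the counts of seed matches could not be applied, since 0 of 59792 genes in the RefSeq table carry an Ensembl ID. Only the first 2 IDs in each direction are therefore printed. The comparison, rules and lists were chosen with earlier results of these data known.

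Replicate numbers were not taken as pairs, because the labels do not say that they mark a shared culture or day. Same-numbered control and miR-1271 libraries did not deviate together (correlations of -0.053, 0.014 and 0.019). So few pairs cannot settle the question, and pairs with miR-2355 libraries were not examined. Replicates of a group differed by 5.615 to 18.61 times sampling noise (chi-square per degree of freedom), so none was merged. Alternatives covered the scaling, filter, tool (DESeq2 1.42.0, limma-voom in limma 3.58.1), libraries, depth, replicate block and null hypothesis.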

Additional observations from a re-analysis of the deposited data

Results flagged for a closer look

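Of the 4 gene IDs printed, 2 differed between the effects of the 2 microRNAs, by a test of the difference itself. ENSG00000138764 exceeded its miR-2355 level by 3.25 on the log2 scale in the miR-1271 pulldown (edgeR adjusted p = 1.53e-07), with all 3 miR-1271 libraries above both miR-2355 libraries. ENSG00000198157 was lower with miR-1271 by a log2 difference of -1.39 (edgeR adjusted p = 0.0227), with all 3 miR-1271 libraries below both miR-2355 libraries. This second call rested on 10, 9 and 10 reads in the miR-1271 libraries. It held under 11 of 18 alternatives, with edgeR, DESeq2 or limma-voom adjusted p from 0.00169 to 0.308. All 4 IDs were picked for their change in these same miR-1271 libraries, which draws the difference from miR-2355 the same way.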

How the results depend on the processing

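The 3062 higher and 3910 lower genes stayed within 1.5 times under RLE and upper-quartile factors, both other filters, DESeq2, limma-voom, the 6 libraries alone and equal depth. With library totals 1896 genes were higher, and against a null of 1.5-fold (glmTreat) 416 were higher and 1443 lower. On leaving out 1 library they ran from 2122 to 3124 and from 3130 to 3928; the omission of miR-2355 libraries was added after seeing the data. With the replicate number as a block, 2757 genes were higher and 3650 lower. No same-numbered pair of control and miR-1271 libraries correlated above 0.1.

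Against control, the 4 printed IDs kept direction and call under all 19 alternatives. Against miR-2355, ENSG00000138764 did so under all 18 (3.13 to 3.37), while ENSG00000198157 lost its call under 7, at -2.2 (edgeR adjusted p = 0.0707) at equal depth and -1.35 (adjusted p = 0.0844) with limma-voom among them. The genes at least 2-fold higher or lower that also passed against miR-2355, 134 and 122, numbered 87 and 302 with library totals, which turns their order, 223 and 210 with no filter, and 23 and 9 with glmTreat, under which 342 genes rose at least 2-fold. The falls among them numbered 72 with the replicate block and 73 at equal depth. The cause was not tested. The planned counts for gene lists were not run.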
